A study of Mus musculus with 24 samples.

Results

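The 6 libraries of female Kdm6a conditional knockout (cKO) mice were set against the 6 libraries of male wildtype mice, chosen because both groups held a similar level of Kdm6a reads. These are 12 of the 24 libraries of a mouse RNA-seq study, and the comparison covers the 15654 autosomal genes that passed a filter on low counts, of 16535 genes tested on all chromosomes. The other 12 libraries, 6 female wildtype and 6 male cKO, served as references. All 24 were labelled spinal cord microglia from mice with EAE, experimental autoimmune encephalomyelitis, a mouse model of multiple sclerosis. According to the design text all mice were of the Tmem119-Cre:RiboTag kind, wildtype mice included, so the groups differed by the Kdm6a genotype, by sex, or by both. Cre under control of Tmem119, a microglial gene, limits both the deletion and the ribosome tag to cells that use that gene. The age of the mice, the day of disease and whether tagged ribosomes were pulled down is not given in the sources used here. No label states that the libraries of a group came from separate animals, so the p-values rest on the variation among libraries, which may be technical.

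Kdm6a, also called UTX, lies on the X chromosome and encodes a demethylase that removes methyl groups from lysine 27 of histone H3, a repressive mark. The protein also sits in the MLL3/4 complexes that mark enhancers, and part of its work does not need its enzyme activity. The gene escapes X inactivation, so female cells use both copies, while male cells have a single copy and a related Y-linked gene, Uty, whose product has little demethylase activity. Microglia, the resident macrophages of the central nervous system, respond to interferon, present antigen and clear myelin in EAE.

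Kdm6a (chrX:18162575-18279936, GRCm38/mm10, plus strand) was present at 3.48, 2.0, 2.65, 2.85, 2.47 and 1.56 CPM (counts scaled to a common library size) in female cKO libraries 1 to 6. Male wildtype libraries 1 to 6 held 2.88, 4.03, 2.52, 1.97, 2.96 and 2.37 CPM, and the ranges overlapped. The female cKO mean of 2.5 ± 0.671 CPM (SD, n = 6) was 89.7% of the male wildtype mean of 2.79 ± 0.705 CPM (SD, n = 6). Female wildtype libraries held 4.51 ± 1.37 CPM (SD, n = 6) and male cKO libraries 1.08 ± 0.382 CPM (SD, n = 6). These levels chose the groups and are given without a test. The counts are per gene, so they do not say whether the Kdm6a reads of cKO libraries came from intact or from deleted transcripts, or from cells without Cre. Uty was at 0 counts in every female cKO library and at 1.11 ± 0.693 CPM (SD, n = 6) in male wildtype libraries, where single libraries held 10 to 70 reads. The sum of Kdm6a and Uty was thus 3.90 ± 1.18 CPM (SD, n = 6) in male wildtype libraries against 2.5 CPM in female cKO libraries, so the match holds for Kdm6a reads and not for the pair. Kdm6b, the autosomal gene of the other H3K27 demethylase, was at 9.93 ± 0.883 CPM in female cKO and 7.70 ± 2.03 CPM in male wildtype libraries (SD, n = 6 each), a log2 difference of 0.37 that did not pass the test (edgeR quasi-likelihood test, adjusted p = 0.289).

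**Figure D1:**
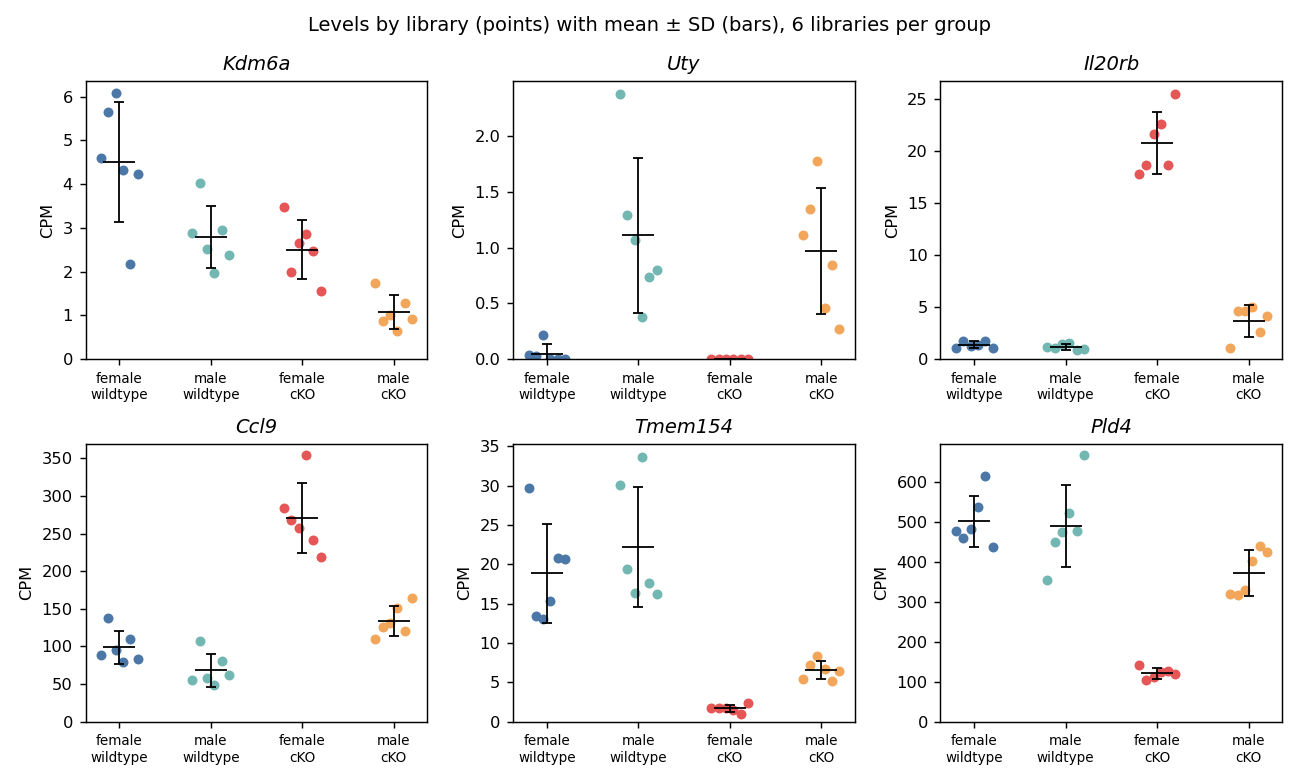
CPM of 6 genes in the 24 libraries, by group. Points are libraries and bars are means with SD (n = 6). Kdm6a overlaps between female cKO and male wildtype libraries, Uty is at 0 in the female cKO libraries, and Il20rb, Ccl9, Tmem154 and Pld4 separate the female cKO libraries from both wildtype groups.

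Total counts ran from 27110133 to 40554736 over the 24 libraries and from 28670852 to 36768501 over the 12 compared here. The 10 defining microglial markers were all detected and summed to 8110 to 11100 CPM in female cKO and 5760 to 8400 CPM in male wildtype libraries. Oligodendrocyte markers summed to 2620 to 3730 CPM and 2680 to 3060 CPM in the same groups, so RNA of other cells was present. Xist was detected in all 12 female libraries and in 1 male cKO library, at 16 counts. Y-linked Ddx3y had 18 and 40 counts in female wildtype libraries 2 and 3. Tchh, a gene of hair follicles, had 3904 and 7365 counts in the same libraries, 474 and 588 in female cKO libraries 1 and 2, and at most 176 in all others. Female wildtype library 5 and male cKO library 3, the library with Xist, were doubted as well with earlier results known. The number in the sample titles was the same for female cKO libraries 1 to 3 and differed between all female cKO and all male wildtype libraries, so what that number stands for cannot be told apart from the groups.

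Most autosomal changes seen when female cKO was set against female wildtype were also present against male wildtype. Against male wildtype, 506 autosomal genes were higher and 651 lower in female cKO libraries (adjusted p below 0.05 in the edgeR test over all genes), which is 7.39% of those tested, 3.23% higher and 4.16% lower. Of these, 226 were higher and 313 lower by at least 2-fold. The median log2 change over all autosomal genes was 0.002. Against female wildtype, 511 genes were higher (3.26%) and 707 lower (4.52%), together 7.78%. Both comparisons use the same 6 female cKO libraries, so they are not independent. Of the 1218 genes changed against female wildtype, 850 (69.8%) were also changed against male wildtype, all in the same direction, comprising 366 of the 511 higher and 484 of the 707 lower genes. The 850 genes are 73.5% of the 1157 genes changed against male wildtype, and 454 of them differed at least 2-fold from male wildtype. In 660 of the 850 no female cKO library overlapped a male wildtype library, where 6.22% of all autosomal genes had no overlap. In 456 of them the female cKO libraries overlapped neither wildtype group, all above in 214 and all below in 242. Over all autosomal genes, 4.46% had no overlap between female cKO and female wildtype. The share without overlap with both wildtype groups was not computed. The 850 genes were chosen by tests on these same libraries, so their counts without overlap are a description.

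The remaining 368 genes of the female comparison, 145 higher and 223 lower, did not pass against male wildtype. The 145 had a median log2 change of 0.58 against female and 0.39 against male wildtype, and the 223 had medians of -1.10 and -0.59. Since both comparisons use the same female cKO libraries and the genes were chosen for their change in 1 of them, these medians are a description. The difference between the comparisons is the contrast of female wildtype and male wildtype, which called 0 of 15654 autosomal genes in the edgeR test, with 490 at an unadjusted p below 0.05, and 2 genes in DESeq2. With the title number as a fixed block it called 0 as well, with 3003 at an unadjusted p below 0.05. Of the female wildtype libraries only 3, 4 and 5 share a number with male wildtype libraries and enter that contrast. For none of the 368 was a difference between the wildtype groups shown after adjustment. Another 307 genes were called against male wildtype and not against female wildtype. The 140 higher of these had medians of 0.84 against male and 0.53 against female wildtype, and the 167 lower had medians of -0.61 and -0.41.

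The count of 1157 depended on some libraries. It was 767 without female cKO libraries 1 and 2, of which 746 were among the 1157, and it ranged from 944 to 1463 when any 1 of the 24 libraries was left out. Without female wildtype libraries 2, 3 and 5 and male cKO library 3 it was 1523, with 1151 shared. Among libraries 1 to 3 of each group alone it was 619, and among libraries 4 to 6 it was 440. With the title number as a random effect it was 579. The 850 genes became 586 without female cKO libraries 1 and 2, 771 without the other 4 doubted libraries, and 685 to 945 when 1 library was left out.

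Male cKO against female wildtype is the opposite pairing of genotype and sex and shares no library with female cKO against male wildtype. The title numbers run with genotype in both pairings: female and male cKO libraries have the same 3 numbers, the wildtype groups share 2, and no cKO number occurs among wildtype libraries. What the number stands for and the genotype therefore cannot be told apart in either pairing. Male cKO against female wildtype called 10 higher (0.0639%) and 21 lower (0.134%) autosomal genes, 0.198% of those tested, and this count ran from 17 to 54 when 1 library was left out. Of those 31 genes, 28 (90.3%) were called in the same direction in female cKO against male wildtype, and they are 2.42% of its 1157. Of the 1157 genes, 1017 (87.9%) had the same sign in male cKO against female wildtype, against 59.6% of all autosomal genes. The sizes were smaller: the 366 remaining higher genes had a median log2 change of 0.95 against male wildtype and 0.31 in male cKO against female wildtype, and the 484 remaining lower genes had medians of -1.12 and -0.38. In this pairing male cKO libraries also held less Kdm6a than either wildtype group, so it is not matched for Kdm6a. Within males, cKO against wildtype called 12 higher (0.0767%) and 17 lower (0.109%) genes, together 0.185%. The female deletion effect minus the male one passed in 17 higher (0.109%) and 49 lower (0.313%) genes, together 0.422%. With the title number as a fixed block it passed in 627 genes, including 64 of these 66. In that fit only female wildtype libraries 3, 4 and 5 share a number with male wildtype libraries, and 3 and 5 are doubted libraries.

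**Figure D2:**
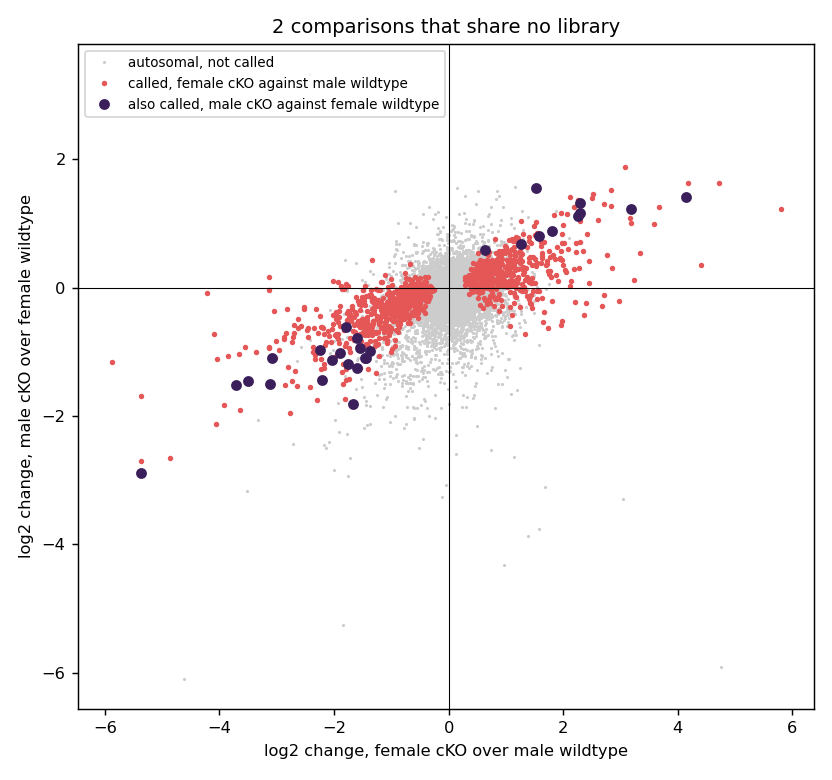
Each point is an autosomal gene, with its log2 change in female cKO over male wildtype on the x axis and in male cKO over female wildtype on the y axis. The 1157 genes called on the x axis lie mostly in the lower left and upper right, with 1017 of the same sign, and the 28 genes called in both comparisons are drawn as large dark points.

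Genes with an interferon response motif near their start are shown first, because the interferon-stimulated list had the most lower members. Promoter windows come from RefSeq (GRCm38.p6, 250 bases before to 50 after each gene's start), which held 10989 of the 15654 genes. The motif searched, on both strands, was GAAA, then 2 bases of any kind, then GAAA, the core of the interferon-stimulated response element. It was present in 3.85% of these promoters, in 57 of 498 promoters (11.4%) of genes lower in female cKO than in male wildtype, in 53 of 368 (14.4%) of the lower genes changed against both wildtype groups, and in 7 of 364 (1.92%) of the higher genes. A second motif, TTCNNNGAA, the gamma-activated sequence, was present in 8.12% of all, 10.8% of the lower and 6.32% of the higher genes' promoters. Among the interferon-stimulated genes described next, 9 of 21 promoters of genes that fell held the first motif, and 10 of 12 promoters of genes that did not pass. A match of letters is a description and not a binding site. The genes named below from the interferon-stimulated, interferon-inducible GTPase and MHC class I lists were looked up. Cmpk2 and Ifi47 had no match before the start, and Rtp4, Gbp9, H2-T24 and Tapbpl were not in the promoter set. For the others, 100 bases are printed with the motif in capitals, read 5′ to 3′ on the gene's strand. They lie at chr5:120777680-120777779 (minus strand) for Oas3, chr19:34583362-34583461 (plus) for Ifit3, chr11:58214868-58214967 (plus) for Irgm2, chr11:58199456-58199555 (plus) for Igtp, chr17:36032771-36032870 (minus) for H2-T23 and chr17:36042879-36042978 (minus) for H2-T22. The motif, for Ifit3 the second of the pair shown, begins 75, 122, 64, 34, 124 and 191 bases before the RefSeq start of these genes, in that order.
Oas3: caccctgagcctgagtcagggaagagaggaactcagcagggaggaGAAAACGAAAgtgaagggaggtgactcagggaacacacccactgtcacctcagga
Ifit3: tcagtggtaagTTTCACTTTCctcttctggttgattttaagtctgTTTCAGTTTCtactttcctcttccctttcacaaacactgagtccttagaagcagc
Irgm2: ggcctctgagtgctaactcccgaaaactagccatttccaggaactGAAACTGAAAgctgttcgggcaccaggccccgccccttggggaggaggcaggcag
Igtp: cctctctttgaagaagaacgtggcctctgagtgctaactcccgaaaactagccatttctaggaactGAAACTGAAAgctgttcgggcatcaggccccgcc
H2-T23: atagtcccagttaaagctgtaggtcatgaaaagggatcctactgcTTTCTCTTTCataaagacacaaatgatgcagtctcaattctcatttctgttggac
H2-T22: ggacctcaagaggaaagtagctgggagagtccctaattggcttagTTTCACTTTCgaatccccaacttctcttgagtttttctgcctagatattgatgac

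Interferon-stimulated genes were lower in female cKO than in male wildtype libraries at similar Kdm6a. Of 45 members tested, 31 fell and 0 rose in the edgeR test, with 39 lower and 0 higher at an unadjusted p below 0.05 and 32 lower and 0 higher in DESeq2, and the median log2 change was -0.93. Against female wildtype 32 members fell, of which 27 were among the 31. Over all autosomal genes 4.16% fell and 3.23% rose against male wildtype, shares that also stand beside the list counts below. The mean level of the list, as log2(CPM + 0.5), was 3.52 to 4.31 in female cKO and 4.42 to 5.34 in male wildtype libraries, without overlap. In male cKO against female wildtype the median of the list was -0.27. Leaving out 1 library gave 24 to 33 lower members. Within libraries 1 to 3 the count was 11 and within libraries 4 to 6 it was 16, with medians of -0.92 and -0.94, and the title number as a random effect left 14. Markers of T cells, a source of interferon gamma, summed to 2.21 to 6.97 CPM in female cKO and 4.0 to 7.09 CPM in male wildtype libraries, and a covariate for markers of infiltrating leukocytes left 19 lower members with a median of -0.60. The covariate is a mean over markers that include Fn1, Fscn1 and Xcr1, which were themselves called between the groups. It can therefore also take up part of the group difference. The part of those cells in the interferon result was not tested. Fewer cells of a type and less RNA per cell cannot be told apart in these libraries, here and below.

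Oas3, a sensor of double-stranded RNA that makes the signal for RNase L, had the smallest p of the list. Its lowest, median and highest levels were 0.755, 1.68 and 2.65 CPM in female cKO libraries and 11.8, 22.8 and 37.1 CPM in male wildtype libraries. The groups did not overlap, and female wildtype libraries lay at 6.51, 13.8 and 33.7 CPM. The log2 change was -3.66 ± 0.38 (SE, n = 6 per group) against male wildtype, with an edgeR adjusted p of 2.19e-07, and -3.24 against female wildtype. Rtp4, a chaperone that interferon induces, lay at 8.52, 14.8 and 31.6 CPM in female cKO against 37.4, 54.5 and 96.3 CPM in male wildtype libraries, again without overlap, with a log2 change of -1.76. Ifit3, an antiviral RNA-binding factor with a near-identical neighbour, Ifit3b, fell by 1.65 on the log2 scale, from a median of 84.0 to 20.3 CPM. Cmpk2, a mitochondrial nucleotide kinase, fell by 1.31, and its highest female cKO library, at 18.6 CPM, lay above the lowest male wildtype library, at 16.9 CPM. Of the signalling members Stat2, a transcription factor of the response, changed by -0.96, and Irf7 and Irf9, which induce members of the list, by -1.47 and -0.37. Reads of near-identical Oas and Ifit genes could be split between copies, since how the authors counted such reads is not given.

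The interferon-inducible GTPases, which attack the vacuoles of intracellular microbes, gave 8 lower and 0 higher of 13 members in the edgeR test, 12 lower and 0 higher at an unadjusted p below 0.05, and 8 and 0 in DESeq2. The median log2 change was -1.21, and -1.45 against female wildtype, where 11 members fell, including all 8. Irgm2 lay at 47.3, 57.5 and 64.6 CPM in female cKO and 90.7, 106 and 155 CPM in male wildtype libraries, with a log2 change of -1.0. Ifi47 lay at 6.78, 9.57 and 13 CPM against 24.4, 52.6 and 102 CPM, a change of -2.45. Igtp and Gbp9 fell by 1.18 and 1.04 on the log2 scale. The annotated span of Irgm2 overlaps that of Igtp on the same strand, so reads of the pair could be split. None of these 4 genes overlapped between the groups, while the male wildtype levels of Ifi47 and Igtp spread widely, with Igtp reaching 205 CPM in library 6. Without male wildtype library 6, 5 members were lower, 2 were lower within libraries 1 to 3, and 3 with the leukocyte covariate. Male cKO library 1 held 208 CPM of Igtp, above all but 1 of the wildtype libraries.

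Antigen presentation genes were lower in part. Of 23 genes of MHC class I presentation, 6 fell and 0 rose against male wildtype in the edgeR test, with 17 lower and 0 higher at an unadjusted p below 0.05 and 9 and 0 in DESeq2, and the median was -0.47. All 6 were also lower against female wildtype, where 10 fell. The non-classical class I gene H2-T24 lay at 21.9, 24.1 and 30.5 CPM in female cKO and 52.7, 60.2 and 71.7 CPM in male wildtype libraries, and its log2 change was -1.28. H2-T23, which encodes the Qa-1 molecule that is read by inhibitory receptors of natural killer cells, fell by 1.02, Tapbpl, a peptide editor, by 0.76, and H2-T22, a ligand of gamma delta T cells, by 0.65. The H2-T22 and Tapbpl calls were lost without male wildtype library 6, and the H2-T22 call without female cKO library 1. The count was 12 without female wildtype library 5, 3 without female cKO library 1, 2 without male wildtype library 6, 2 without female cKO libraries 1 and 2, and 15 without the 4 doubted libraries. Reads of H2-T genes could be shared among these close copies.

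Of 16 genes of MHC class II and costimulation, 4 fell and 0 rose in the edgeR test (6 and 0 at an unadjusted p below 0.05, 4 and 0 in DESeq2), and all 4 had also fallen against female wildtype. Cd80, a ligand of the T cell receptors CD28 and CTLA-4, lay at 1.48, 2.75 and 3.45 CPM in female cKO and 5.42, 7.76 and 8.43 CPM in male wildtype libraries, a log2 change of -1.52. H2-Ob and H2-Oa, the chains of a modulator of class II peptide loading, fell by 0.83 and 0.95, and Icosl, the ligand of ICOS, by 0.52. The H2-Oa call was lost when any 1 of 5 libraries was left out. Cd74, the invariant chain and by far the more abundant gene, changed by -0.48 without passing the test (edgeR adjusted p = 0.336), from 3559, 5441 and 8463 CPM in male wildtype to 2210, 4357 and 4986 CPM in female cKO libraries. Those groups overlapped.

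**Figure D3:**
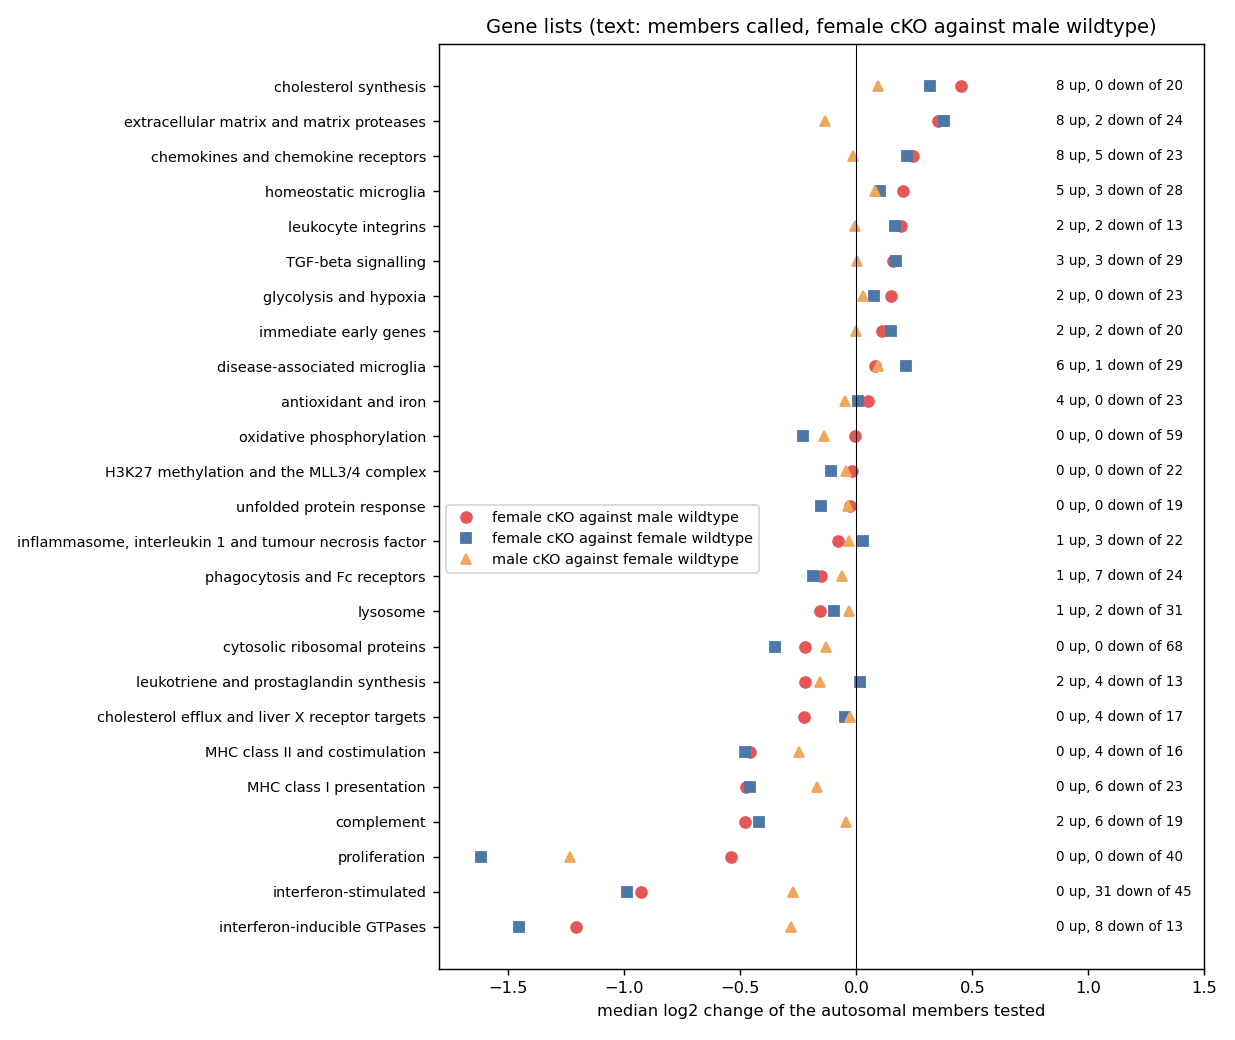
Median log2 change of the autosomal members of 25 gene lists in 3 comparisons, with the counts of members called higher and lower in female cKO against male wildtype at the right. Against male wildtype the interferon lists lie farthest to the left at -0.93 and -1.21, cholesterol synthesis lies at 0.45, and the proliferation list lies at -0.54 against male wildtype and -1.62 against female wildtype.

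Complement and clearance genes were lower in part. Of 19 complement genes tested, 6 fell and 2 rose, where 4.16% and 3.23% of all autosomal genes did. All 8 had done so against female wildtype. C4b, a component of the classical pathway, lay at 12.7, 17.3 and 21.0 CPM in female cKO and 74.7, 114 and 188 CPM in male wildtype libraries, with no overlap. Its log2 change was -2.87 ± 0.31 (SE, n = 6 per group, edgeR adjusted p = 5.04e-07). C1ra, a protease of the first complex, fell by 1.27 on the log2 scale and C2, the next protease, by 1.35. The 2 members that rose were the integrin chains of complement receptors, Itgb2, by 0.65, and Itgax, by 1.18.

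Among 24 genes of phagocytosis and Fc receptors, 7 fell and 1 rose, where 4.16% and 3.23% of all autosomal genes did. The 1 that rose was Mfge8, a bridge to dying cells, at a log2 change of 1.11. Siglec1, a sialic acid receptor of macrophages that interferon induces, lay at 4.38, 6.88 and 8.56 CPM in female cKO and 27.9, 39.4 and 71.7 CPM in male wildtype libraries, with a log2 change of -2.62 and no overlap. Gas6, a bridge between phosphatidylserine and the TAM receptors, fell by 1.57. The activating receptors of immunoglobulin G Fcgr4 and Fcgr1 fell by 2.70 and 0.92. Fcgr4 lay at 24 to 46.9 CPM in all 6 female cKO libraries and at 153 to 307 CPM in male wildtype libraries, while female wildtype library 5 reached 951 CPM and male cKO library 1 reached 648 CPM. Markers of border macrophages, cells that also bear Siglec1, summed to 14.9 to 30.1 CPM in female cKO and 21.7 to 48.2 CPM in male wildtype libraries, and 0 of the 5 tested members passed in edgeR or DESeq2, with 2 lower at an unadjusted p below 0.05. The part of these cells in the result was not tested.

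Chemokines moved in both directions. Of 23 chemokines and receptors, 8 rose and 5 fell, where 3.23% and 4.16% of all autosomal genes did. All 10 that were changed against female wildtype were among the 13. Ccl9, an attractant of myeloid cells, lay at 218, 263 and 354 CPM in female cKO, 48.6, 60.2 and 107 CPM in male wildtype and 79.5, 92.0 and 138 CPM in female wildtype libraries. Every female cKO library was above every other library of the study, and the log2 change against male wildtype was 1.98 ± 0.18 (SE, n = 6 per group, edgeR adjusted p = 1.52e-08). Ccl6, its neighbour on chromosome 11 with a related sequence, rose by 1.76, from a median of 208 to 760 CPM. Ccl22, a ligand of CCR4, rose by 2.23, from a median of 4.45 to 20.5 CPM, and Ccl4, an attractant of myeloid and T cells, by 1.29. The receptor Ccr1 rose by 2.0. The members that fell were Cxcl9, at -1.79, Cxcl10, at -1.96, Ccl5, at -2.23, Ccl8, at -2.31, and Ccrl2, at -0.57; the first 3 are attractants of T cells that interferon induces. Without female cKO library 3 or without male wildtype library 4, 5 members rose, and with the title number as a random effect 5 rose and 0 fell.

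Alox5ap, Alox5 and Ltc4s, which act in leukotriene synthesis, were lower. Alox5ap, which presents arachidonic acid to 5-lipoxygenase, lay at 4.72, 10.5 and 18.6 CPM in female cKO and 75.4, 92.4 and 103 CPM in male wildtype libraries. The log2 change was -3.08 ± 0.26 (SE, n = 6 per group, edgeR adjusted p = 4.71e-09), and the groups were far apart. Male cKO libraries had a median of 47.7 CPM. Male cKO library 1, at 94.6 CPM, lay inside the male wildtype range, and the others lay between the groups at 42.3 to 50.5 CPM. Alox5, the lipoxygenase itself, fell by 1.36 and Ltc4s, the synthase of leukotriene C4, by 1.17. Ptgs1, a cyclooxygenase, fell by 1.19. In all, 4 of 13 members fell and 2 rose, Hpgd, which degrades prostaglandins, by 2.22 and Tbxas1, thromboxane synthase, by 0.40. Among 22 genes of the inflammasome, interleukin 1 and tumour necrosis factor, Il18, Il18bp and Gsdmd fell by 0.74, 2.05 and 0.61 and Il1b rose by 1.08, where Il18bp is the binding protein that blocks interleukin 18 and Gsdmd the pore of pyroptosis. The Gsdmd and Il1b calls were near the threshold, with edgeR adjusted p of 0.0451 and 0.0346, and were lost when any 1 of several libraries was left out.

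Genes of signalling and adhesion were among those with the smallest p against male wildtype. Il20rb (chr9:100457719-100486788, minus strand), a receptor chain for the cytokines IL-20 and IL-24, was at 17.8, 18.6, 21.6, 22.5, 18.6 and 25.5 CPM in female cKO libraries 1 to 6. Male wildtype libraries held 1.12, 1.05, 1.45, 1.52, 0.873 and 0.994 CPM. All female cKO libraries stood far above all male wildtype libraries, and female wildtype libraries held 1.02 to 1.76 CPM. The log2 change was 4.15 ± 0.27 against male wildtype (SE, n = 6 per group, edgeR adjusted p = 9.95e-11) and 3.93 against female wildtype. In male cKO libraries Il20rb lay between 1.06 and 4.95 CPM, and its log2 change against female wildtype, from libraries that are not in the comparison with male wildtype, was 1.42 (adjusted p = 0.00705).

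Tgfb2 (chr1:186622792-186705989, minus strand), a ligand of the TGF-beta receptors that keep microglia in their resting state, lay at 9.56, 10.4 and 14.0 CPM in female cKO and 0.531, 1.37 and 1.70 CPM in male wildtype libraries. Its log2 change was 3.18 ± 0.29 (SE, n = 6 per group, edgeR adjusted p = 2.32e-08), without overlap. Of the 29 genes of TGF-beta signalling 3 rose and 3 fell, where 3.23% and 4.16% of all autosomal genes did. All 6 were among the 7 changed against female wildtype. Ltbp3, which binds latent TGF-beta, rose by 1.05, while Acvrl1, a type I receptor, and Smad6, an inhibitory SMAD, fell by 1.07 and 0.89. Fst, which encodes follistatin, a trap of activins, was scarce in male wildtype libraries at 0 to 0.263 CPM and lay at 1.90 to 3.10 CPM in female cKO libraries. Hbegf, a ligand of the epidermal growth factor receptor, rose by 1.63, from a median of 4.59 to 14.2 CPM.

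Lyz1 (chr10:117287797-117292868, minus strand), a lysozyme gene, lay at 71.8, 120 and 131 CPM in female cKO and 8.30, 10.3 and 17.5 CPM in male wildtype libraries, with no overlap. Its log2 change was 3.18 against male and 3.28 against female wildtype. Lyz2, the neighbouring and much more abundant macrophage lysozyme, rose by 1.14, from a median of 12690 to 31720 CPM. The sequences are close copies, so a share of the Lyz1 reads could come from Lyz2. The part of such reads in the Lyz1 result was not tested. Other genes that rose were Xirp1, an actin-binding protein known from muscle, by 5.80, Madcam1, an adhesion molecule for lymphocytes, by 4.18, Stac2 by 2.29, Cspg4, a proteoglycan, by 2.25, Ak1, adenylate kinase, by 1.95, Arhgef5, an exchange factor for small GTPases, by 1.80, Vopp1 by 1.57 and Enpp5 by 1.26. In each of these 8 genes every female cKO library exceeded every male wildtype library, where 6.22% of all autosomal genes had no overlap. The 8 were named for a small p in this same comparison, so their separation is a description.

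Of the lower genes, Tmem154 (chr3:84666192-84704575, plus strand), a membrane protein of little-known function, lay at 1.03, 1.75 and 2.33 CPM in female cKO and 16.2, 18.5 and 33.7 CPM in male wildtype libraries. The log2 change was -3.72 ± 0.25 (SE, n = 6 per group, edgeR adjusted p = 9.95e-11), and -1.52 in male cKO against female wildtype (adjusted p = 0.000539). Pld4 (chr12:112760655-112768990, plus strand), an endosomal nuclease that degrades nucleic acid ligands of Toll-like receptors, lay at 143, 104, 113, 124, 128 and 119 CPM in female cKO libraries 1 to 6. Male wildtype libraries lay at 355, 450, 474, 522, 478 and 668 CPM, so the groups were far apart. Its log2 change was -2.01 ± 0.13 (SE, n = 6 per group, edgeR adjusted p = 9.95e-11), and -0.43 in male cKO against female wildtype, which did not pass (adjusted p = 0.267).

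Itgal, the alpha chain of the integrin LFA-1, lay at 2.61, 3.90 and 7.25 CPM in female cKO and 40.2, 43.1 and 68.8 CPM in male wildtype libraries, a log2 change of -3.50. Among 13 leukocyte integrins Itgal and Itgb7 fell, the latter by 2.69, and Itgb2 and Itgax rose. Over all autosomal genes 4.16% fell and 3.23% rose. Gpr35, a receptor of kynurenic acid, lay at 3.43 to 4.99 CPM in female cKO and 37.6 to 56.7 CPM in male wildtype libraries, a change of -3.56. Male cKO library 1, at 66.4 CPM, stood above all male wildtype libraries for Gpr35, while the other 5 male cKO libraries lay at 17.6 to 26.7 CPM. Further genes among the lowest p-values were the adaptors Grap and Themis2, at -1.79 and -1.72, Ebi3, a subunit of interleukins 27 and 35, at -2.34, Aoah, which inactivates lipopolysaccharide, at -3.04, Coro2a at -2.24, Liph, a phospholipase, at -1.59, Treml2 at -1.57, and Slc2a9, a urate transporter, at -1.42. In each of these genes all female cKO libraries lay below all male wildtype libraries, where 6.22% of all autosomal genes had no overlap. They too were named for a small p in this same comparison, so their separation is a description. T cells, B cells and monocyte-derived cells also use Itgal and Itgb7. The levels of their markers are given below, and their part in these genes was not tested.

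**Figure D4:**
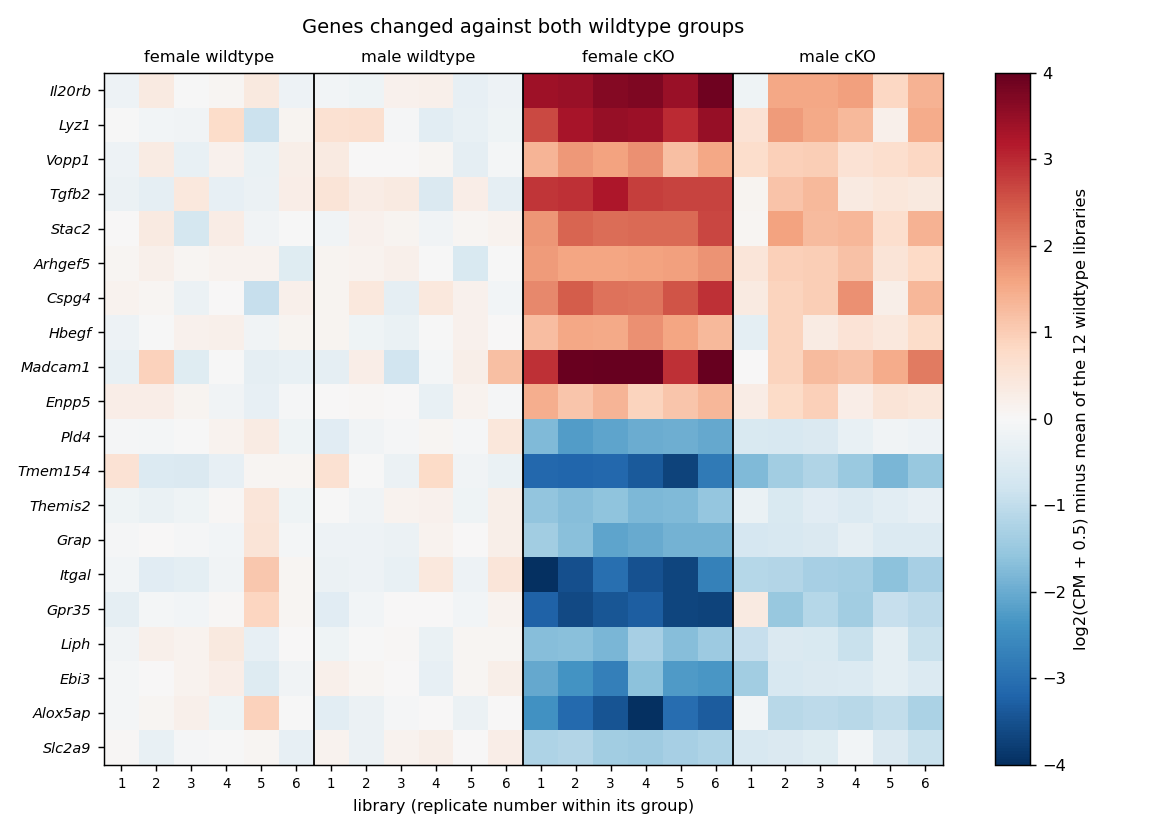
Levels of the 10 higher and 10 lower genes with the smallest larger p of the comparisons with the 2 wildtype groups, as log2(CPM + 0.5) minus the mean of the 12 wildtype libraries, with colours limited at 4 and -4. The 6 female cKO columns are red or blue in every row, and the male cKO columns are paler in the same direction in most rows.

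Cholesterol synthesis genes were higher in part. Of 20 autosomal members 8 rose and 0 fell in the edgeR test, with 11 higher and 0 lower at an unadjusted p below 0.05 and 9 and 0 in DESeq2. The median log2 change was 0.45, and 6 of the 8 had risen against female wildtype. The mean level of the list was 3.73 to 3.99 in female cKO and 3.37 to 3.56 in male wildtype libraries, without overlap, on the log2(CPM + 0.5) scale. Srebf2, the transcription factor of the pathway, lay at 68.2, 72.4 and 81.5 CPM against 34.2, 49.5 and 59.2 CPM, a log2 change of 0.65 ± 0.13 (SE, n = 6 per group, edgeR adjusted p = 0.00137). Cyp51, an enzyme of the pathway, rose by 0.86. Male cKO libraries held a median of 62.0 CPM of Srebf2, above the medians of both wildtype groups. Within libraries 4 to 6 alone 2 members passed, and 4 with the title number as a random effect.

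Genes of cholesterol efflux, targets of the liver X receptors, went the other way in part. Of 17 members, 4 fell and 0 rose in the edgeR test, with 6 lower and 0 higher at an unadjusted p below 0.05 and 4 and 0 in DESeq2. Apoc4, Apoc2 and Apoc1, apolipoproteins of 1 gene cluster on chromosome 7, fell by 2.69, 1.56 and 1.63 on the log2 scale. Apoc2 lay at 6.73 to 22.8 CPM in female cKO and 38.3 to 51.7 CPM in male wildtype libraries. The fourth was Mylip, a ligase that degrades the LDL receptor, at -0.72. Apoe, in the same cluster and among the most abundant mRNAs, did not pass the test at -0.83 (edgeR adjusted p = 0.129), with 42960, 81270 and 117800 CPM in female cKO and 73420, 142300 and 210700 CPM in male wildtype libraries. It did not pass in 13 of 15 alternatives either. It passed with the compared groups alone and with a term for libraries 1 to 3 against 4 to 6.

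**Figure D5:**
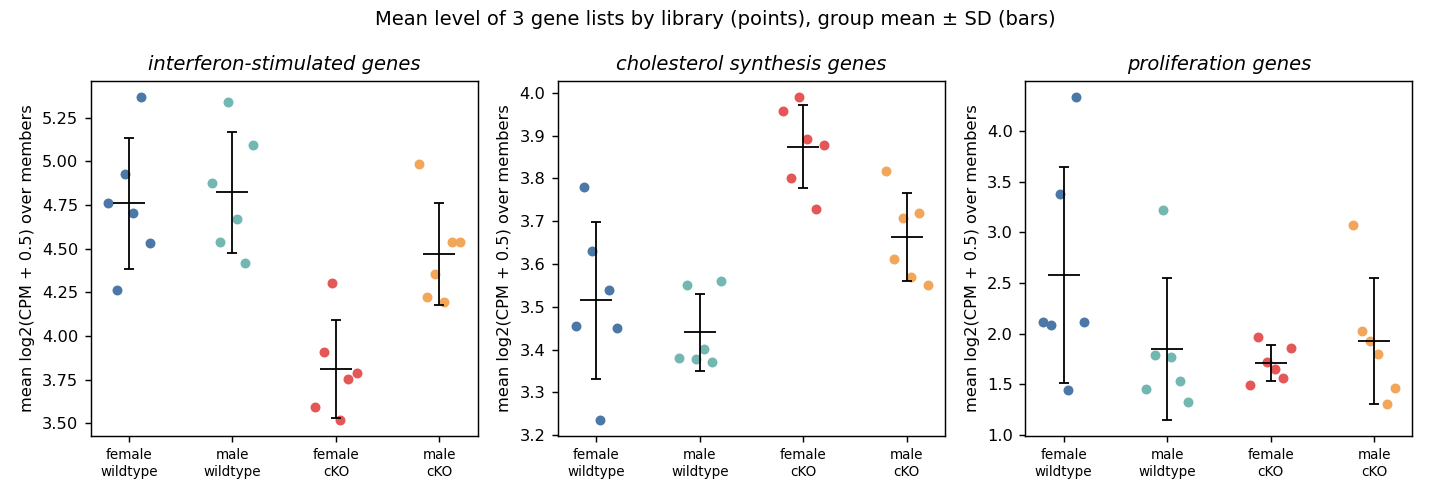
Mean log2(CPM + 0.5) over the members of 3 gene lists in each library, with group means and SD (n = 6). Interferon-stimulated genes lie at 3.52 to 4.31 in female cKO and 4.42 to 5.34 in male wildtype libraries, cholesterol synthesis genes at 3.73 to 3.99 and 3.37 to 3.56, and proliferation genes overlap, with male wildtype library 3 at 3.22.

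Signature genes of microglial states did not move as a block. Of 28 homeostatic genes 5 rose and 3 fell, and of 29 genes of disease-associated microglia 6 rose and 1 fell. Over all autosomal genes 3.23% rose and 4.16% fell. Tmem119, the gene whose regulation drives Cre in these mice, lay at 190, 201 and 291 CPM in female cKO and 256, 327 and 470 CPM in male wildtype libraries, a log2 change of -0.70 (edgeR adjusted p = 0.00243). Its groups overlapped through female cKO library 1, and it did not pass within libraries 1 to 3. P2ry12, the ADP receptor of resting microglia, changed by 1.43 with an adjusted p of 0.0342, with female cKO library 1 at 478 CPM and the others at 109 to 302 CPM, and the call was lost without female cKO library 1 or 3 or any 1 of 4 male wildtype libraries. Siglech, a further microglial receptor, rose by 1.48 and Fcrls fell by 0.99. The homeostatic count of higher genes was 3 without female cKO library 1, male wildtype library 1 or male wildtype library 3.

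Among the disease-associated genes, Gpnmb, a glycoprotein of lipid-laden phagocytes, lay at 872, 1504 and 2045 CPM in female cKO and 2981, 4247 and 7881 CPM in male wildtype libraries, a log2 change of -1.69. It was the member that fell, whereas Itgax and Ank, a transporter of pyrophosphate, rose by 1.18 and 1.41 along with Lyz2 and Ccl6. Trem2, the lipid receptor of this state, changed by 0.05 (edgeR adjusted p = 0.933), with 1010, 1354 and 1539 CPM against 1023, 1207 and 1582 CPM. Spp1, osteopontin, changed by 0.41 (adjusted p = 0.372). Neither gene passed the test, and both overlapped between the groups.

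Matrix genes were higher in part. Of 24 members 8 rose, 2 fell and 14 did not pass, where 3.23% of all autosomal genes rose and 4.16% fell. Postn, periostin, lay at 103, 113 and 134 CPM in female cKO and 8.45, 14.2 and 25.2 CPM in male wildtype libraries, a log2 change of 2.84 ± 0.32 (SE, n = 6 per group, edgeR adjusted p = 7.55e-07). Mmp2, a gelatinase, rose by 1.05 and Mmp12, the elastase of macrophages, by 3.68, while Mmp14, which activates Mmp2, fell by 0.87. Fibroblast and mural markers summed to 297 to 690 CPM in female cKO and 261 to 559 CPM in male wildtype libraries, with 0 of 10 members passing in edgeR, 0 at an unadjusted p below 0.05 and 0 in DESeq2. Matrix genes are used by those cells as well, and their part in the result was not tested. Tnc, tenascin C, rose by 2.40 against male wildtype and changed by 1.18 against female wildtype without passing (adjusted p = 0.0603), where female wildtype libraries 3 and 5 reached 5.22 and 3.64 CPM.

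In smaller lists some members passed, where 7.39% of all autosomal genes did. The hypoxia and lysosomal lists were near that share, so their called genes say little about those lists. Vegfa and Slc2a1, a growth factor and a glucose transporter of the hypoxia response, rose by 1.52 and 0.55 as the 2 called genes of 23. In the list of 23 antioxidant genes Prdx1, Srxn1, Txnrd1 and Slc7a11 rose by 0.72, 0.71, 0.42 and 0.67. Of 20 immediate early genes Nr4a1 and Egr1 rose by 1.03 and 0.68 and Jun and Ier3 fell by 0.56 and 0.91, and without female wildtype library 5 there were 4 that rose. Of 31 lysosomal genes Pld4 and Lamp1 fell, the latter by 0.40, and Atp6v0d2, a subunit of the proton pump, rose by 1.03. Lamp1 and Atp6v0d2 lost their calls when any 1 of several libraries was left out, as did Slc7a11. In edgeR 0 of 22 genes of H3K27 methylation and the MLL3/4 complex, 0 of 59 of oxidative phosphorylation, 0 of 68 of cytosolic ribosomal proteins and 0 of 19 of the unfolded protein response passed, and DESeq2 gave 0 in each of these. At an unadjusted p below 0.05 there were 1, 0, 6 and 3 members, in that order.

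Proliferation genes were lower in part against female wildtype, and none passed against male wildtype. Against female wildtype 11 of 40 members fell, with a median of -1.62, and against male wildtype 0 passed in edgeR and DESeq2, 1 was lower at an unadjusted p below 0.05, and the median was -0.54. The wildtype groups themselves had a median of 1.22 in this list, female over male, and 0 members passed. The mean level of the list was 1.49 to 1.96 in female cKO libraries and 1.32 to 1.79 in 5 male wildtype libraries, with male wildtype library 3 at 3.22. Female wildtype libraries 3 and 5 stood at 3.38 and 4.34, and the other 4 between 1.44 and 2.12. Plk1, a mitotic kinase, showed this in a single gene, with 29.4 CPM in female wildtype library 5, 8.04 CPM in male wildtype library 3 and 0.377 to 1.49 CPM in female cKO libraries. Kif23, a kinesin of cell division, Tk1, thymidine kinase, and Ube2c, a ubiquitin enzyme of mitosis, changed by -1.92, -0.81 and -1.37 against male wildtype without passing.

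Of the genes called against female wildtype and not against male wildtype, those with the smallest p between the wildtype groups are named here. On the lower side they were Perp, Krt10, Krt1 and Asprv1, genes of skin, and Atp2a1, a calcium pump of muscle. Perp lay at 9.90 and 29.8 CPM in female wildtype libraries 2 and 3 and at 0.428 to 0.950 CPM in the other 4, against 0.137 to 2.30 CPM in female cKO and 0.153 to 0.834 CPM in male wildtype libraries. These libraries were the ones high in Tchh. Against male wildtype the log2 differences of these 5 genes ran from -0.05 to 0.96 and none passed. On the higher side they were Klf12, Fut10, Tmem178, Erc1 and Nrp2, with log2 changes of 0.49 to 1.88 against female and 0.20 to 0.48 against male wildtype. Male wildtype levels lay between those of female wildtype and female cKO, as in Fut10, a fucosyltransferase, at medians of 19.6, 21.7 and 27.2 CPM.

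In the opposite class, genes called against male wildtype alone, those with the smallest p between the wildtype groups were Adamts3, Hspb3, Mgarp, Ckmt1 and Tnc on the higher side, at log2 changes of 0.52 to 2.40. Lower were Akap1, Slco2a1, Cipc, Gpr162 and Rgs3, at -0.40 to -1.8. The Akap1 call was lost when any 1 of 9 libraries was left out, and the Rgs3 call without female cKO library 1 or male wildtype library 4. Hspb3, a small heat shock protein, lay at medians of 12.3 CPM in female cKO, 11.2 CPM in female wildtype and 7.39 CPM in male wildtype libraries, so both female groups were alike in level. Slco2a1, a prostaglandin transporter, lay at medians of 0.680, 1.77 and 2.77 CPM in the same order. For none of the 20 genes named in these classes did the difference between the wildtype groups pass the edgeR test after adjustment.

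None of 14 marker lists differed between female cKO and male wildtype libraries in mean level after adjustment, but the summed CPM of 4 lists of other cells, monocyte-derived, dendritic, B cell and endothelial, did not overlap. Over the 14 marker lists, the mean log2(CPM + 0.5) of monocyte-derived cell markers was 1.10 ± 0.156 in female cKO and 1.36 ± 0.196 in male wildtype libraries (SD, n = 6 each; 2-sided exact permutation p = 0.0325, adjusted p = 0.25). For defining microglial markers it was 9.21 ± 0.235 and 8.91 ± 0.239 (SD, n = 6 each; exact permutation p = 0.0498, adjusted p = 0.25), and the other 12 lists had an exact p of 0.0606 or more. The summed CPM of monocyte-derived markers went the other way, with 612 to 1080 in female cKO and 320 to 504 in male wildtype libraries, with Fn1, fibronectin, the largest part of it, which rose by 1.43. Of the other members Ly6c2 changed by -3.33 and Ccr2 by -0.88 without passing. Dendritic cell markers summed to 665 to 824 CPM against 159 to 277 CPM through Fscn1, an actin bundler, which rose by 1.83 from a median of 218 to 716 CPM, while Xcr1 and Batf3, which define a dendritic class, fell by 3.64 and 0.76, Xcr1 to 0 to 0.184 CPM. The Batf3 call was lost when any 1 of 3 libraries was left out. Clec9a, a marker of the same class, lay higher, at 0.797 to 1.42 CPM against 0.269 to 0.788 CPM without overlap, and did not pass (log2 change 1.13, edgeR adjusted p = 0.118), though it passed in 3 of 15 alternatives. Endothelial markers summed to 106 to 167 CPM against 66.2 to 87.2 CPM. Of their 10 members Flt1 rose by 1.15, from 50.1 to 71.6 CPM in male wildtype to 98.1 to 158 CPM in female cKO libraries, and Kdr fell by 1.49, from 5.12 to 8.53 CPM to 0.920 to 3.88 CPM; both are receptors of VEGF. B cell markers summed to 291 to 391 CPM against 124 to 269 CPM, mostly through Ighm. Only 2 of the 8 markers passed the low-count filter, Cd79b and Ighm, which rose by 0.59 and 0.73. Cd79b lay at 8.40 to 11.7 CPM against 4.68 to 9.52 CPM, and its call was lost without any 1 of 6 libraries. Ly6g and Retnlg, defining markers of neutrophils, were at 0 in all 12 libraries. The 2 neutrophil markers that could be tested did not pass in edgeR, at log2 changes of 0.41 and 1.49, while DESeq2 called 1 higher. The larger was S100a8, a calcium-binding protein of neutrophils, at medians of 3.49 CPM in female cKO and 0.872 CPM in male wildtype libraries, with an edgeR adjusted p of 0.0546, and it passed in 8 of 15 alternatives.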

How the data were processed

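RNA-seq libraries were made with a stranded kit from total RNA of spinal cord microglia, per the labels' protocols. The authors deposited raw read counts per gene, 1 table column for each of the 24 libraries. The submitters' processing notes name bcl2fastq 2.17, FastQC, Trimmomatic and the mm10 build. Which aligner and counting program were used, and whether strand was counted, is not given in the sources used here, so antisense, overlapping and near-identical genes are uncertain. Even numbers made up 71.8% of counts between 1 and 10 and 51.7% of counts between 1000 and 10000, so mates may have been counted separately. Of 39017 identifiers 37693 (96.6%) matched a gene.

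All 24 libraries were fitted together with edgeR 4.0.16 (R 4.3.3; filterByExpr, TMM factors of 0.873 to 1.17, quasi-likelihood test). Benjamini-Hochberg adjustment ran over 16535 genes, and called means an adjusted p below 0.05. CPM were computed on library sizes scaled by the TMM factors. Scores are means of log2(CPM + 0.5), compared over the 924 exact permutations of 6 against 6 libraries, whose smallest p is 0.00216. Alternatives used DESeq2 1.42.0, limma 3.58.1 and other filters, scalings, designs and subsets of libraries. On simulated data for female cKO against male wildtype (16384 genes), 38%, 82%, 98% and 100% of 50 genes changed 1.5-, 2-, 3- and 4-fold were recovered, with 9 false of 168 calls.

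The groups and gene lists were chosen with earlier results of these data known. Named genes are 7 fixed ones (Apoe, Cd74, Kdm6b, P2ry12, Spp1, Tmem119, Trem2), the 15 higher and 15 lower with the smallest p, the 10 and 10 with the smallest larger p against both wildtype groups, the 5 and 5 of each class called against 1 wildtype group alone by the p between wildtype groups, and up to 4 members of each list by p. Further list members were named after their values were seen, and some members are not reported here. No pair of libraries agreed within sampling noise. Libraries were numbered in accession order.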

Additional observations from a re-analysis of the deposited data

Results flagged for a closer look

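In 14 of 308 groups of 6 values examined, a library stood apart from the other 5 of its group. It was judged by the ratio of its gap to the group's range, where chance gives about 1 in 20. Only female cKO and male wildtype libraries were examined, so female wildtype and male cKO libraries could not be flagged. The ratio was 0.811 for Tmem119 in female cKO library 1, at 291 CPM against 190 to 206 CPM in the others. In the same library it was 0.628 for Fut10, at 25.8 against 26.9 to 27.7 CPM, and 0.678 for H2-T22, at 30.6 against 40.5 to 46.3 CPM. Male wildtype library 5 gave 0.727 for Arhgef5, at 1.88 against 3.11 to 3.72 CPM, and male wildtype library 6 gave 0.727 for H2-Oa, at 68.1 against 26.7 to 34.5 CPM. Male wildtype library 4 gave 0.638 for Kdr, at 8.53 against 5.12 to 6.18 CPM. Male wildtype library 3 gave 0.65 for Kif23, at 2.49 against 0.0765 to 0.526 CPM, 0.636 for Plk1, at 8.04 against 0.574 to 1.78 CPM, 0.625 for Srxn1, at 65.2 against 86 to 101 CPM, and 0.753 for the proliferation score, at 3.22 against 1.32 to 1.79. The score of B cell markers gave 0.641 for female cKO library 3, at 0.693 against 0.757 to 0.793, that of Schwann cell markers 0.69 for female cKO library 2, at 3.13 against 2.14 to 2.45, and that of neutrophil markers 0.725 for male wildtype library 1, at -0.0982 against -0.688 to -0.525. The total count gave 0.755 for male wildtype library 2, at 36768501.

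In 21 of the 133 genes examined by name the deletion effect differed between the sexes, tested as the female effect (cKO minus wildtype) minus the male effect in the edgeR fit. Among genes higher in female cKO libraries this log2 difference was 2.29 for Il20rb, 2.14 for Lyz1, 2.7 for Tgfb2, 1.56 for Cspg4, 3.16 for Madcam1 and 1.11 for Mmp2. Among lower genes it was -1.72 for Tmem154, -1.65 for Pld4, -1.18 for Themis2, -1.36 for Grap, -2.22 for Itgal, -3.03 for Gpr35, -1.54 for Ebi3, -1.02 for Liph, -2.69 for Alox5ap, -1.49 for Coro2a, -1.41 for Treml2, -2.2 for C4b, -3.28 for Fcgr4, -1.09 for Ptgs1 and -1.31 for Alox5. Male cKO library 1 stood well above the other male cKO libraries in several of these genes. It held 66.4 CPM of Gpr35 against 17.6 to 26.7, and 648 CPM of Fcgr4 against 93.1 to 150. For C4b it held 156 against 36.1 to 76.2 CPM, and for Alox5ap 94.6 against 42.3 to 50.5 CPM. Female wildtype library 5 held 951 CPM of Fcgr4 against 127 to 232. How far these differences rest on single libraries was not tested. Over all autosomal genes 66 of 15654 (0.422%) passed this test. Most of the 133 were named for a small p in comparisons with the same female cKO libraries. The count of 21 therefore cannot be set against that share.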

How the results depend on the processing

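Counts of called autosomal genes moved by over 1.5 times under these settings, some of which hold fewer libraries. The cause was not tested. Female cKO against male wildtype (1157) gave 579 with the title number as a random effect, 1847 with voom quality weights, 619 and 440 within libraries 1 to 3 and 4 to 6, and 767 without female cKO libraries 1 and 2. Female cKO against female wildtype (1218) gave 759 with the title number, 437 and 628 within those library sets, and 613 with the leukocyte covariate. The 850 genes shared by both became 467, 315, 338 and 531 in the same order. Male cKO against female wildtype (31) gave 96 in DESeq2, 9 with the compared groups alone and 9 with the title number, 67 with voom weights, 64 with a term for the library sets, 10 and 3 within them, and 20 without the 4 doubted libraries. Male cKO against male wildtype (29) gave 76 in DESeq2, 1 with the title number, 87 with voom weights, 44 with the set term, 0 and 0 within the sets, 46 without the 4 doubted libraries and 19 without female cKO libraries 1 and 2. Female against male wildtype (0) gave 2 in DESeq2 and 1 without the 4 doubted libraries.

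Leaving out 1 library gave 944 to 1463, 935 to 1536, 685 to 945, 17 to 54, 14 to 61 and 0 to 0 for these counts, in the same order; called genes higher ranged from 395 to 616 and lower from 530 to 847. Single genes kept direction and call in 1824 alternatives other than leaving out 1 library, lost the call in 119, gained it in 16 and changed sign in 19.

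Sign changes concerned genes that were not called. Within libraries 1 to 3 the log2 change was 0.0822 for Asprv1 and -0.3693 for Krt10. Within libraries 4 to 6 it was -0.0965 for Atp2a1, -0.1665 for Krt1, -0.9842 for Perp, 0.0693 for Plk1, -0.0443 for Tchh and 0.1352 for Ube2c. Without female cKO libraries 1 and 2 it was -0.0018 for Atp2a1, -0.0906 for Krt1, -0.01 for Krt10, -0.8124 for Perp and -0.0066 for Tchh. With the leukocyte covariate it was 0.0334 for Asprv1, -0.0216 for Krt1, 0.238 for Plk1, 0.1569 for Tk1 and -0.117 for Trem2, and with the title number 0.1026 for Ube2c. With 1 library left out, values ran from -0.3512 to 0.2182 for Asprv1, -0.0355 to 0.3005 for Atp2a1, -0.0197 to 0.4926 for Krt10, -1.3458 to 0.0252 for Plk1 and -0.0002 to 0.127 for Trem2.

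No cKO library shares a title number with a wildtype library, so cKO could not be blocked against wildtype. The sexes share all numbers among cKO libraries and some among wildtype libraries. A fixed replicate block by title number, chosen after seeing the data, left 0 genes between female and male wildtype. At an unadjusted p below 0.05 there were 3003. The wildtype contrast then rests on the libraries whose numbers both sexes hold. Among female wildtype libraries these are 3, 4 and 5, of which 3 and 5 were doubted above. The same block gave 627 for the female deletion effect minus the male one (66), including 64 of those 66. That count rests on the same female wildtype libraries. What the title number stands for is not given in the sources used here. At this depth 38% of simulated 1.5-fold changes were recovered, so small differences may be missed.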
